A study of Mus musculus with 8 samples.

Results

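The genes described are 48 genes of DNA replication and nucleotide synthesis, chosen by name for what their products do. They cover the helicase, the factors that load and fire it, the DNA polymerases, the sliding clamp and its loader, single-strand binding, Okazaki fragment joining and the supply of deoxynucleotides. Of the 48, 47 had a probe set annotated to 1 gene, out of 22180 such genes on the array. All 47 passed the filter on low values, which kept 13308 genes for testing. Rfc4, a clamp loader subunit, had only a probe set shared with Eif4a2 and was left out of every count.

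RNA came from C2C12, an established line of mouse myoblasts (muscle precursor cells) whose cells join into multinucleate myotubes, and was hybridised to Affymetrix Mouse Gene ST 2.1 arrays. Before differentiation the myoblasts had received a retrovirus carrying either a control shRNA (siScramble, here control cells) or an shRNA against Baf60c (here knockdown cells). Baf60c, the product of Smarcd3, belongs to the BAF complex, which remodels chromatin. The myotubes were then kept for 12 h at 1 mM or 10 mM glucose. This made 4 groups of 2 arrays: control cells at 1 mM (Scrb_LG), knockdown cells at 1 mM (SiBc_LG), control cells at 10 mM (Scrb_HG) and knockdown cells at 10 mM (SiBc_HG). The series design calls the 2 arrays of a group independent biological replicates. All groups are 1 transduced cell line, untransduced cells were not analysed here, and the control cells carry a retrovirus too.

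Before a cell copies its DNA, the origin recognition complex, Cdc6 and Cdt1 load the MCM helicase, a ring of 6 related subunits, onto origins. Kinases then recruit Cdc45 and the GINS complex, which turn the loaded ring into the active helicase, and primase, polymerases, clamp and ligase follow the fork. Ribonucleotide reductase makes the deoxynucleotides. Many of these genes are transcribed under E2F factors as cells enter S phase, and myotubes are known as cells that have left the cell cycle.

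Correlation between the arrays of a group ran from 0.987 to 0.99 over all tested genes, and between arrays of different groups from 0.939 to 0.984. Values are log2 expression after RMA, a normalisation that sets all arrays to a like distribution, so 1 unit is a 2-fold difference. The targeted gene could be read only through a probe set shared by Smarcd3 and Chpf2. At 1 mM it gave 5.62 and 5.40 on the control arrays against 3.01 and 2.77 on the knockdown arrays, and at 10 mM 6.27 and 6.09 against 3.90 and 4.49. Knockdown cells thus read 6.15-fold lower at 1 mM and 3.95-fold lower at 10 mM, with the limit that Chpf2 is on the same probe set. Myotube genes were well above the low end of the scale, with Myog between 8.62 and 10.16 over the 8 arrays and Mymk, the myomaker fusion protein, between 9.34 and 11.46.

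Promoter sequence was available for 39 of the 47 genes. It was taken from RefSeq (mouse build GRCm38.p6) as the 250 bases before the annotated start and searched on both strands for an E2F motif, spelled TTTCCCGC, TTTCGCGC, TTTGCCGC or TTTGGCGC, and for the CCAAT box. For the 8 genes with several promoters in that table, a match in any of them counted. An E2F match stood in 10 of the 39 (25.6%), against 583 of the 27025 genes with a promoter (2.16%). CCAAT stood in 61.5% of the 39 and in 37.5% of all. Of the 14 genes with a promoter that passed the test for a rise with glucose in either kind of cell, 6 (42.9%) held an E2F match and 12 (85.7%) CCAAT. The other 25 genes held them in 4 (16%) and 12 (48%). Rrm2 and Tk1, which had the largest rises of the 47 genes, held no E2F match, nor did Rrm1 and Lig1. Tk1 and Lig1 held no CCAAT either. Of the 6 genes with an E2F match, Mcm5, Rfc3 and Uhrf1 passed in knockdown cells alone. Shown first are the 2 genes with an E2F match whose mean rise was largest, and after them the 2 genes with a promoter whose mean change was smallest, all on the plus strand. The latter means are small because the 2 kinds of cell went opposite ways. Rpa2 gave -0.30 in control and 0.30 in knockdown cells, and Orc1 -0.31 and 0.35. The promoters shown lie at chr8:75109259-75109508 (Mcm5), chr17:56304063-56304312 (Uhrf1, the downstream of its 2 promoters), chr4:132768110-132768359 (Rpa2) and chr4:108579204-108579453 (Orc1), and capitals mark the E2F and CCAAT matches.
Mcm5: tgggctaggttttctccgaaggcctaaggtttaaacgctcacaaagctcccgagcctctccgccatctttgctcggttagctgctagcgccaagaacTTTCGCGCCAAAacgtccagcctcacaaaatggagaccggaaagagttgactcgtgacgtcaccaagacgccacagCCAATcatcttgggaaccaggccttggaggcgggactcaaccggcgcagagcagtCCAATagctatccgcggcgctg
Uhrf1: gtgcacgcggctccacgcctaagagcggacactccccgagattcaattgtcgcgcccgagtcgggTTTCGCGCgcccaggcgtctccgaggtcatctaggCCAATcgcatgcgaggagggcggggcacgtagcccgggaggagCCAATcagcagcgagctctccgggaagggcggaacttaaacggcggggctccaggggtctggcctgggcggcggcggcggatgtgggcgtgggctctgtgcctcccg
Rpa2: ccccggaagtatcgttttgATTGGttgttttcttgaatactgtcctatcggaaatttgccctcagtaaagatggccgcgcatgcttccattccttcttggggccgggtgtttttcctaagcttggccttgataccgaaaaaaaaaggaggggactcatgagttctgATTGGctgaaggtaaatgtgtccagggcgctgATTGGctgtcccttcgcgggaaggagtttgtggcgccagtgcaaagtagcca
Orc1: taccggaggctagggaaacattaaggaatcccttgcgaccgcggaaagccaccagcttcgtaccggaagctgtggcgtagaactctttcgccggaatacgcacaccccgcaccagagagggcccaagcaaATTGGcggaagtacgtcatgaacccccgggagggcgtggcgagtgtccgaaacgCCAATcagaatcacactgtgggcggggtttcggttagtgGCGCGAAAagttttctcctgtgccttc
In Mcm5 the capitals nearest the middle hold 2 overlapping E2F matches, 1 on each strand. Orc1, whose values were near the low end of the scale, also held an E2F match, so a match was found both in genes that rose and in genes that did not pass the test. A match describes these letters only.

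Glucose moved these genes mostly upward. In control cells 14 of the 47 (29.8%) were higher at 10 mM than at 1 mM and 3 (6.38%) were lower, by limma with Benjamini-Hochberg adjustment over all 13308 genes and an adjusted p under 0.05. Of all tested genes 13.2% were higher and 12.1% lower in that comparison. In knockdown cells 18 (38.3%) were higher and 2 (4.26%) lower, where 14.5% of all genes were higher and 10.6% lower. The median change of the 47 was 0.32 on the log2 scale in control and 0.41 in knockdown cells, beside -0.01 and 0.03 over all tested genes. With arrays centred on their median, the split in knockdown cells was 17 higher and 5 lower among the 47 (the added lower genes being Orc4, Orc5 and Pold2) and 1612 against 1826 over all genes, in place of 1936 against 1406. At least a 2-fold change together with a passed test was found for 7 genes in control and 12 in knockdown cells. The same count over all tested genes was not made, so these numbers have no share to be set against.

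Both kinds of cell shared 13 higher genes, which is 13 of the 14 and 13 of the 18. They were Mcm2, Mcm4, Mcm6, Cdc45, Gins2, Gins3, Pola1, Prim2, Pole, Lig1, Rrm1, Rrm2 and Tk1. Prim1 passed the test in control cells alone, and Mcm5, Gins1, Rfc3, Rpa1 and Uhrf1 in knockdown cells alone. Orc2 and Dut were lower in both and Cdt1 in control cells. The other 25 genes passed in neither comparison. With 2 arrays a group the median 95% interval of a change, before adjustment, reached 0.406 log2 units to each side over all tested genes. Larger changes could also miss the adjusted threshold. In control cells Mcm5 at 1.05 (adjusted p = 0.113) and Uhrf1 at 0.74 (adjusted p = 0.0585) did so in the limma test.

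**Figure D1:**
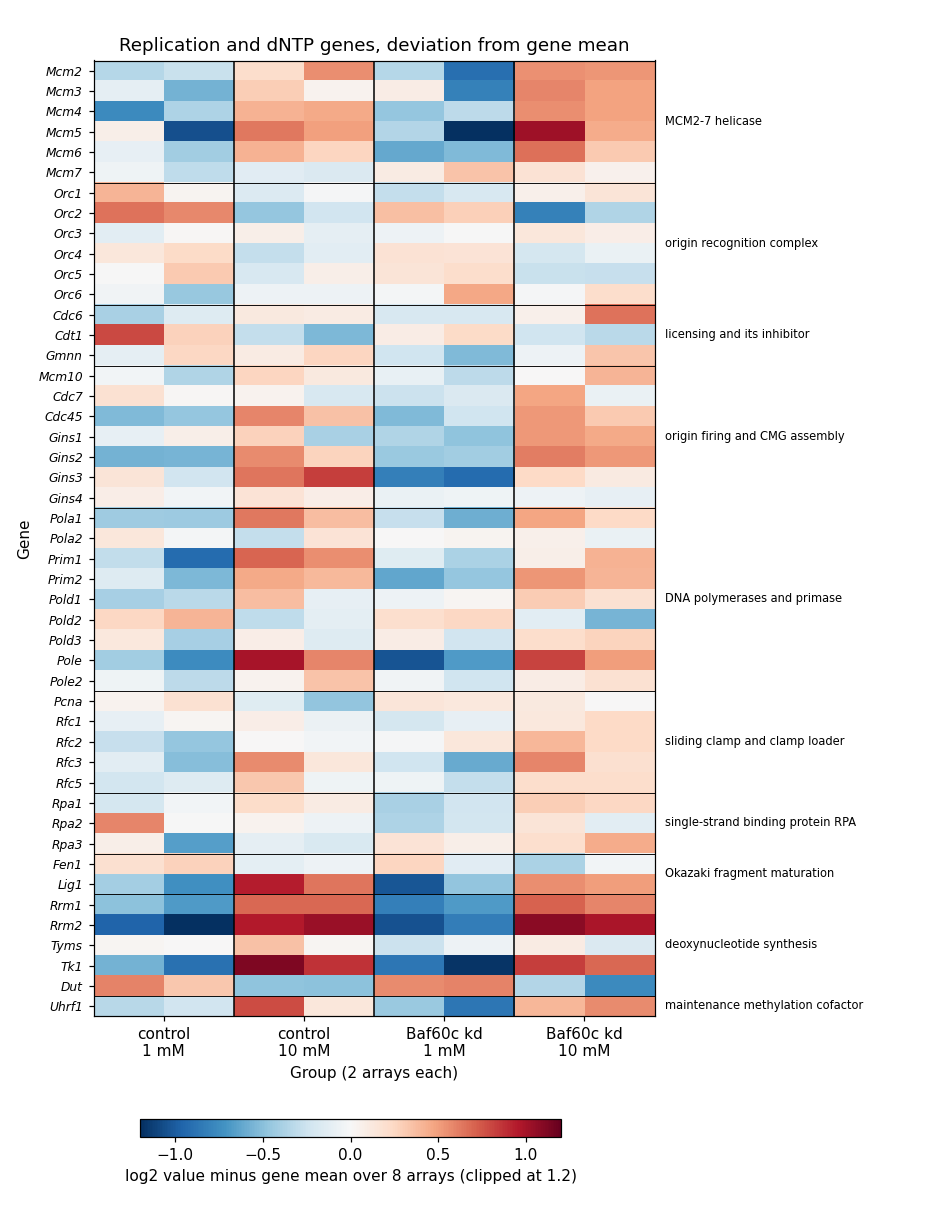
Each row is 1 of the 47 genes in order of role and each column 1 of the 8 arrays. Colour is the log2 value minus the gene's mean over the 8 arrays. Rrm2, Tk1, Rrm1, Pole and Lig1 are high on all 4 arrays at 10 mM glucose, and Orc2 and Dut are low on them.

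The helicase subunits did not move as 1 block. In control cells 3 of the 6 MCM genes rose and in knockdown cells 4. Of all tested genes 13.2% and 14.5% rose, and 12.1% and 10.6% fell. The same shares stand beside each count by role below. Mcm4 read 5.75 and 6.15 in control cells at 1 mM and 6.93 and 6.97 at 10 mM, and in knockdown cells it went from 6.05 and 6.20 to 7.08 and 7.0. All 4 arrays at 10 mM were above all 4 at 1 mM. Glucose levels stood apart, in either direction, for 64.4% of all tested genes in control cells and 64.2% in knockdown cells. For 4 arrays against 4 that share was not counted, here or for the genes below. The change was 1.00 ± 0.16 in control cells (SE, 2-fold, adjusted p = 0.00441) and 0.91 ± 0.16 in knockdown cells (1.87-fold, adjusted p = 0.00604).

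Mcm2 read 5.08 and 5.15 in control cells at 1 mM and 5.63 and 5.97 at 10 mM, a change of 0.69 ± 0.21 (1.61-fold, adjusted p = 0.048). In knockdown cells it went from 5.08 and 4.51 to 5.96 and 5.94, a change of 1.16 ± 0.21 (2.23-fold, adjusted p = 0.00626). For Mcm6 the control arrays were 5.93 and 5.61 at 1 mM and 6.45 and 6.29 at 10 mM, and the change was 0.60 ± 0.17 (1.52-fold, adjusted p = 0.0425). Its knockdown arrays were 5.42 and 5.5, then 6.69 and 6.35, a change of 1.06 ± 0.17 (2.08-fold, adjusted p = 0.00443). Neither gene's groups overlapped between glucose levels, which held for most tested genes. Their calls in control cells were close to the threshold: with 1 of the 8 arrays left out the adjusted p reached 0.218 for Mcm2 (without Scrb_HG replicate 2) and 0.197 for Mcm6 (without Scrb_LG replicate 2), and 6 of the 8 omissions ended each call.

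Mcm5 had the widest spread between replicates of the 6. Its arrays were 4.85 and 3.72 at 1 mM and 5.41 and 5.27 at 10 mM in control cells, and 4.42 and 3.51, then 5.79 and 5.22, in knockdown cells. The control change of 1.05 ± 0.42 did not pass the test (adjusted p = 0.113), whereas the knockdown change of 1.53 ± 0.42 did (2.89-fold, adjusted p = 0.0354). That call ended in 5 of the 8 omissions of an array, with an adjusted p of up to 0.173 without SiBc_HG replicate 1. Mcm3 read 5.09 and 4.63, then 5.5 and 5.25, in control cells, and 5.29 and 4.39, then 5.79 and 5.69, in knockdown cells. Its changes of 0.51 (adjusted p = 0.251) and 0.90 (adjusted p = 0.0632) did not pass.

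Mcm7 was the exception among the helicase genes. Its control arrays were 6.21 and 5.96 at 1 mM and 6.13 and 6.09 at 10 mM, and its knockdown arrays 6.36 and 6.60, then 6.44 and 6.31. The values at both glucose levels overlapped. The change was 0.02 in control cells (95% interval -0.33 to 0.37, adjusted p = 0.94) and -0.11 in knockdown cells (-0.46 to 0.24, adjusted p = 0.657), so both intervals leave out a 2-fold change. A fit with a dim probe set shared by Mcm7 and Mir25, a microRNA within the gene, gave -0.95 (adjusted p = 0.0419) in control and -0.14 in knockdown cells, at values of 1.54 to 2.87.

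The origin recognition complex, which marks where replication may start, held no gene that rose. Of its 6 subunits Orc2 fell in both kinds of cell. It read 7.39 and 7.32 in control cells at 1 mM and 6.28 and 6.51 at 10 mM, and 7.10 and 7.03, then 5.93 and 6.38, in knockdown cells. Every array at 10 mM was below every array at 1 mM. Orc2 fell by 0.96 on the log2 scale in control cells (SE 0.18, 1.95-fold, adjusted p = 0.00758) and by 0.91 in knockdown cells (SE 0.18, 1.88-fold, adjusted p = 0.00908). Leaving out SiBc_HG replicate 1 took the knockdown value to an adjusted p of 0.0539. The other 5 did not pass: Orc3, Orc4, Orc5 and Orc6 changed by -0.39 to 0.18 in control and -0.45 to 0.14 in knockdown cells. Orc1, the subunit with values of only 2.03 to 2.73, gave -0.31 and 0.35.

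Among the licensing factors, Cdt1 was the gene that moved in control cells. Cdt1, which brings the MCM ring to origins, read 6.17 and 5.66 at 1 mM and 5.09 and 4.85 at 10 mM there. It fell by 0.95 (SE 0.19, 1.93-fold, adjusted p = 0.0113), and without Scrb_HG replicate 2 the adjusted p was 0.0692. In knockdown cells Cdt1 read 5.47 and 5.61, then 5.14 and 5.06, and the change of -0.44 did not pass (adjusted p = 0.14). Gmnn, which encodes geminin, the inhibitor of Cdt1, gave 0.11 and 0.52 (adjusted p = 0.731 and 0.0974). Cdc6, the ATPase that works with Cdt1, lay between 2.37 and 3.41 and gave 0.38 and 0.55 (adjusted p = 0.211 and 0.0897).

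Of the 7 genes that fire origins and complete the active helicase, 3 rose in control and 4 in knockdown cells. Gins2, a GINS subunit, went from 4.68 and 4.70 to 5.82 and 5.52 in control cells and from 4.81 and 4.84 to 5.87 and 5.77 in knockdown cells. The groups stood clearly apart, with changes of 0.98 ± 0.14 (1.97-fold, adjusted p = 0.00294) and 0.99 ± 0.14 (1.99-fold, adjusted p = 0.0024). Cdc45, the factor that joins GINS on the MCM ring, changed by 0.97 (1.95-fold, adjusted p = 0.00497) and 0.80 (1.74-fold, adjusted p = 0.00983). The knockdown call for Cdc45 ended without either replicate 1 of that kind of cell, with adjusted p of up to 0.0709 (without SiBc_HG replicate 1).

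Gins3 rose by 0.78 ± 0.17 in control cells (1.71-fold, adjusted p = 0.0139) and by 1.04 ± 0.17 in knockdown cells (2.05-fold, adjusted p = 0.00399). Its arrays were 5.71 and 5.32, then 6.19 and 6.38, in control cells and 4.73 and 4.63, then 5.79 and 5.66, in knockdown cells. Leaving out a replicate 2 of control cells ended the control call (adjusted p up to 0.0789, without Scrb_HG replicate 2). Gins1 behaved otherwise in control cells, at 3.39 and 3.56 and then 3.77 and 3.10, overlapping groups with a change of -0.04 ± 0.22 (adjusted p = 0.913). In knockdown cells it went from 3.13 and 3.01 to 4.01 and 3.94, a change of 0.91 ± 0.22 (1.87-fold, adjusted p = 0.0207), lost without any 1 of the 4 knockdown arrays (adjusted p up to 0.0983, without SiBc_HG replicate 1). Gins4 stayed between 7.0 and 7.27 on all arrays and gave 0.10 and -0.02. Cdc7, the kinase that triggers firing, and Mcm10, a firing factor at 2.49 to 3.26, did not pass in either kind of cell, with changes of -0.17 to 0.41.

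The polymerases and primase comprised 9 measured genes, of which 4 rose in control and 3 in knockdown cells. Pole, the catalytic subunit of the leading strand polymerase epsilon, read 3.67 and 3.33 in control cells at 1 mM and 5.07 and 4.67 at 10 mM. Its knockdown arrays went from 3.05 and 3.41 to 4.90 and 4.59. The gap between glucose levels was larger than any replicate difference, at 1.37 ± 0.22 (2.58-fold, adjusted p = 0.00427) and 1.51 ± 0.22 (2.85-fold, adjusted p = 0.00247). A second Pole probe set lay at 1.52 to 2.30 and did not pass in either comparison.

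Pola1, the catalytic subunit of polymerase alpha, changed by 0.94 (adjusted p = 0.00684) in control and 0.79 (adjusted p = 0.0132) in knockdown cells. The knockdown call for Pola1 ended without SiBc_LG replicate 2 or SiBc_HG replicate 1 (adjusted p up to 0.0884, for the latter). Prim2, the large primase subunit, changed by 0.77 (adjusted p = 0.0128) and 1.01 (adjusted p = 0.00387), and its control call ended in 3 omissions (adjusted p up to 0.0666, without Scrb_LG replicate 2). Prim1, the catalytic primase subunit, went from 5.39 and 4.76 to 6.39 and 6.24 in control cells, a change of 1.24 ± 0.23 (2.36-fold, adjusted p = 0.00796). Its knockdown arrays were 5.54 and 5.31, then 5.75 and 6.10, a change of 0.51 (adjusted p = 0.158).

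Their partner subunits gave smaller values. Pold2, an accessory subunit of the lagging strand polymerase delta, was lower by a margin that just missed the threshold, at -0.54 (adjusted p = 0.0596) and -0.57 (adjusted p = 0.0503). Pold1, the delta catalytic subunit, gave 0.50 (adjusted p = 0.0744) and 0.26 (adjusted p = 0.323). Pola2, Pold3 and Pole2 gave between -0.11 and 0.37, and none of these 5 genes passed in either kind of cell.

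Of the sliding clamp and its loader, none of the 5 measured genes passed in control cells. Their changes there ran from -0.42 to 0.67, with a median of 0.32, equal to that of the 47 genes. Pcna, the clamp that holds polymerases on DNA, read 8.18 and 8.32 at 1 mM and 8.0 and 7.67 at 10 mM in control cells, and 8.29 and 8.27, then 8.26 and 8.15, in knockdown cells. The control values did not overlap, as for 64.4% of all tested genes, but the change of -0.42 ± 0.15 missed the threshold (adjusted p = 0.0828). The knockdown change was -0.07 (adjusted p = 0.773). Rfc3, a loader subunit, went from 4.05 and 3.66 to 4.74 and 4.32 in control cells (0.67 ± 0.23, adjusted p = 0.0761) and from 3.94 and 3.57 to 4.76 and 4.37 in knockdown cells (0.81 ± 0.23, adjusted p = 0.0416). The latter call ended without any 1 of the 4 knockdown arrays (adjusted p up to 0.206, without SiBc_HG replicate 1). Rfc1, Rfc2 and Rfc5 gave 0.05 to 0.38, none past the test.

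Replication protein A, which coats single-stranded DNA, has 3 subunits. None passed in control cells. Rpa1 passed in knockdown cells, at 0.58 ± 0.13 (1.5-fold, adjusted p = 0.0181), against 0.28 (adjusted p = 0.171) in control cells. Its knockdown call ended in 3 omissions (adjusted p up to 0.095, without SiBc_HG replicate 1) and when its dim second probe set was averaged in. Rpa2 read 5.74 and 5.15, then 5.20 and 5.09, in control cells and 4.79 and 4.93, then 5.31 and 5.02, in knockdown cells. The changes were -0.30 and 0.30 (adjusted p = 0.344 and 0.34). Rpa3 gave 0.15 and 0.21, and a second Rpa3 probe set gave -0.04 and 0.41, none past the test.

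Of the 2 genes that finish Okazaki fragments, Lig1, the ligase that seals them, rose in both kinds of cell. It read 4.61 and 4.28, then 5.96 and 5.66, in control cells, and 3.99 and 4.55, then 5.58 and 5.52, in knockdown cells. All arrays at 10 mM stood above all arrays at 1 mM, with changes of 1.37 ± 0.22 (2.58-fold, adjusted p = 0.00436) and 1.28 ± 0.22 (2.42-fold, adjusted p = 0.00523). Fen1, the flap nuclease that works before it, gave -0.33 and -0.27 (adjusted p = 0.233 and 0.336) at values of 3.37 to 4.03. Uhrf1, which brings maintenance methylation to newly copied DNA, read 4.85 and 4.95, then 5.96 and 5.32, in control cells (0.74 ± 0.24, adjusted p = 0.0585) and 4.74 and 4.32, then 5.58 and 5.75, in knockdown cells (1.14 ± 0.24, 2.2-fold, adjusted p = 0.0121). Without either knockdown replicate 2 that call was lost (adjusted p up to 0.0704, without SiBc_HG replicate 2).

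**Figure D2:**
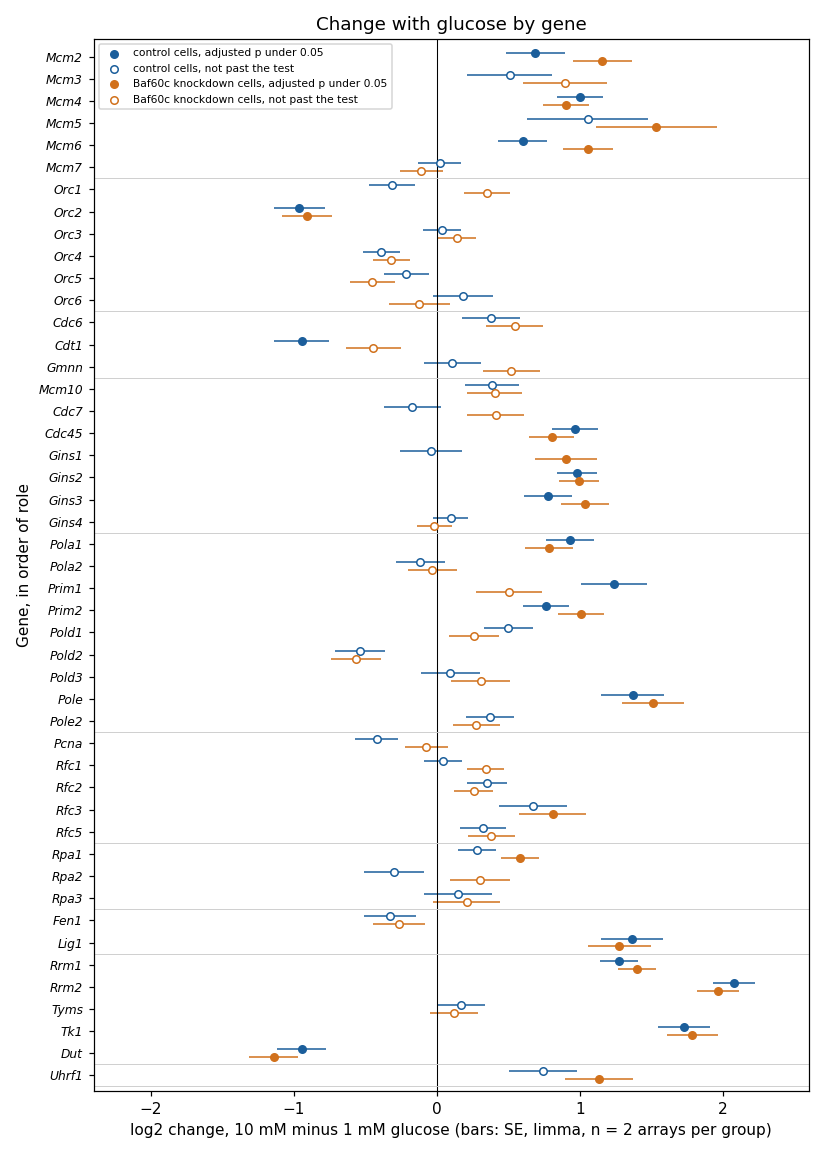
Points are log2 changes from 1 mM to 10 mM glucose for each of the 47 genes, blue for control and orange for Baf60c knockdown cells, with bars for the SE of the limma fit and n = 2 arrays per group. Filled points have an adjusted p under 0.05, with Rrm2 farthest to the right at 2.08 and 1.97, and Orc2, Dut and control Cdt1 the filled points on the left.

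Of the 5 enzymes of deoxynucleotide supply, 3 rose and 1 fell in both kinds of cell, and Rrm2 and Tk1 had the largest changes of all 47 genes. Rrm2, the small subunit of ribonucleotide reductase whose level limits that enzyme in S phase, read 5.27 and 5.02 in control cells at 1 mM and 7.18 and 7.27 at 10 mM. In knockdown cells it went from 5.20 and 5.41 to 7.32 and 7.22. All 4 arrays at 10 mM stood above all 4 at 1 mM. The change was 2.08 ± 0.15 (4.23-fold, adjusted p = 0.000197) in control and 1.97 ± 0.15 (3.91-fold, adjusted p = 0.000229) in knockdown cells. A second Rrm2 probe set sat at 0.93 to 1.26, at the bottom of the scale, and did not pass.

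Rrm1, the large subunit, started higher, at 7.08 and 6.90, and reached 8.26 and 8.27 in control cells. Its knockdown arrays went from 6.75 and 6.89 to 8.28 and 8.16. Rrm1 thus rose by 1.27 ± 0.13 (2.42-fold, adjusted p = 0.000834) and 1.40 ± 0.13 (2.64-fold, adjusted p = 0.00053). Tk1, the cytosolic thymidine kinase of the salvage route, went from 4.44 and 4.11 to 6.13 and 5.88 in control cells and from 4.14 and 3.83 to 5.84 and 5.70 in knockdown cells. Groups were again fully apart, with changes of 1.73 ± 0.18 (3.32-fold, adjusted p = 0.000834) and 1.79 ± 0.18 (3.45-fold, adjusted p = 0.00063).

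Thymidylate itself is made by Tyms from dUMP, which Dut supplies by cleaving dUTP, and neither of these genes rose. Tyms read 6.04 and 6.02, then 6.37 and 6.04, in control cells and 5.76 and 5.95, then 6.11 and 5.84, in knockdown cells. The changes of 0.17 and 0.12 did not pass (adjusted p = 0.503 and 0.659). Dut went from 7.21 and 6.93 to 6.12 and 6.12 in control cells and from 7.17 and 7.21 to 6.25 and 5.85 in knockdown cells. It fell by 0.94 (SE 0.17, 1.93-fold, adjusted p = 0.00721) and by 1.14 (SE 0.17, 2.2-fold, adjusted p = 0.00307). A dimmer second Dut probe set gave -1.41 (adjusted p = 0.0558) and -1.79 (adjusted p = 0.0243), the same direction.

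Around these enzymes, several genes that build nucleotides from small precursors fell. Of 13 other genes of deoxynucleotide and folate metabolism, 1 rose and 4 fell in control cells, and 2 rose and 6 fell in knockdown cells. That is 7.69% higher and 30.8% lower in control cells, and 15.4% and 46.2% in knockdown cells, against 13.2% and 12.1%, and 14.5% and 10.6%, of all tested genes. Shmt2, the mitochondrial serine hydroxymethyltransferase, fell from 10.26 and 10.32 to 7.33 and 7.32 in control cells, by 2.97 on the log2 scale (7.83-fold, adjusted p = 6.57e-05). Mthfd2, a mitochondrial folate enzyme, fell by 2.73 (6.62-fold). Dctd, the dCMP deaminase that feeds dUMP to Tyms, fell by 1.83 (3.56-fold) and Mthfd1, a cytosolic folate enzyme, by 1.06 (2.08-fold). In knockdown cells the same 4 genes fell by 2.64, 2.67, 1.38 and 0.76. Samhd1, which breaks down deoxynucleotides, rose by 0.52 in control (adjusted p = 0.0384) and 0.76 in knockdown cells (adjusted p = 0.00847). Dck, the deoxycytidine kinase, rose by 1.33 in knockdown cells (2.52-fold, adjusted p = 0.000718). In control cells Dck gave 0.44 (adjusted p = 0.0573), and its interaction did not pass the limma test (adjusted p = 0.417).

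De novo pyrimidine synthesis had 5 tested genes, of which 3 fell and 1 rose in control cells, and 2 fell and 1 rose in knockdown cells. The lower shares were thus 60% and 40%, against 12.1% and 10.6% of all tested genes. Cad, which carries the first steps of pyrimidine synthesis, went from 6.89 and 6.90 to 5.57 and 5.48 in control cells. It fell by 1.37 (2.58-fold, adjusted p = 0.00074). Ctps, a CTP synthase, fell by 0.87 and Umps, which makes UMP, by 0.62, while Ctps2, the second CTP synthase, rose by 0.61 (adjusted p = 0.0112). Of 11 de novo purine genes 2 fell and 1 rose in control cells, and 3 fell and 1 rose in knockdown cells. The lower purine genes were 18.2% and 27.3% of the list and the higher 9.09% in both. Of all tested genes 12.1% and 10.6% were lower and 13.2% and 14.5% higher. Ppat, the first committed enzyme, fell by 1.08 and Atic, which closes the ring, by 1.05 in control cells. The gene that rose was Adssl1, the muscle form of adenylosuccinate synthase, at 1.32 (adjusted p = 0.00412). Myc, a transcription factor known for driving nucleotide synthesis genes, fell from 9.04 on both control arrays at 1 mM to 5.89 and 6.06 at 10 mM, by 3.07 (adjusted p = 4.53e-05). Whether Myc had a part in these falls was not tested.

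**Figure D3:**
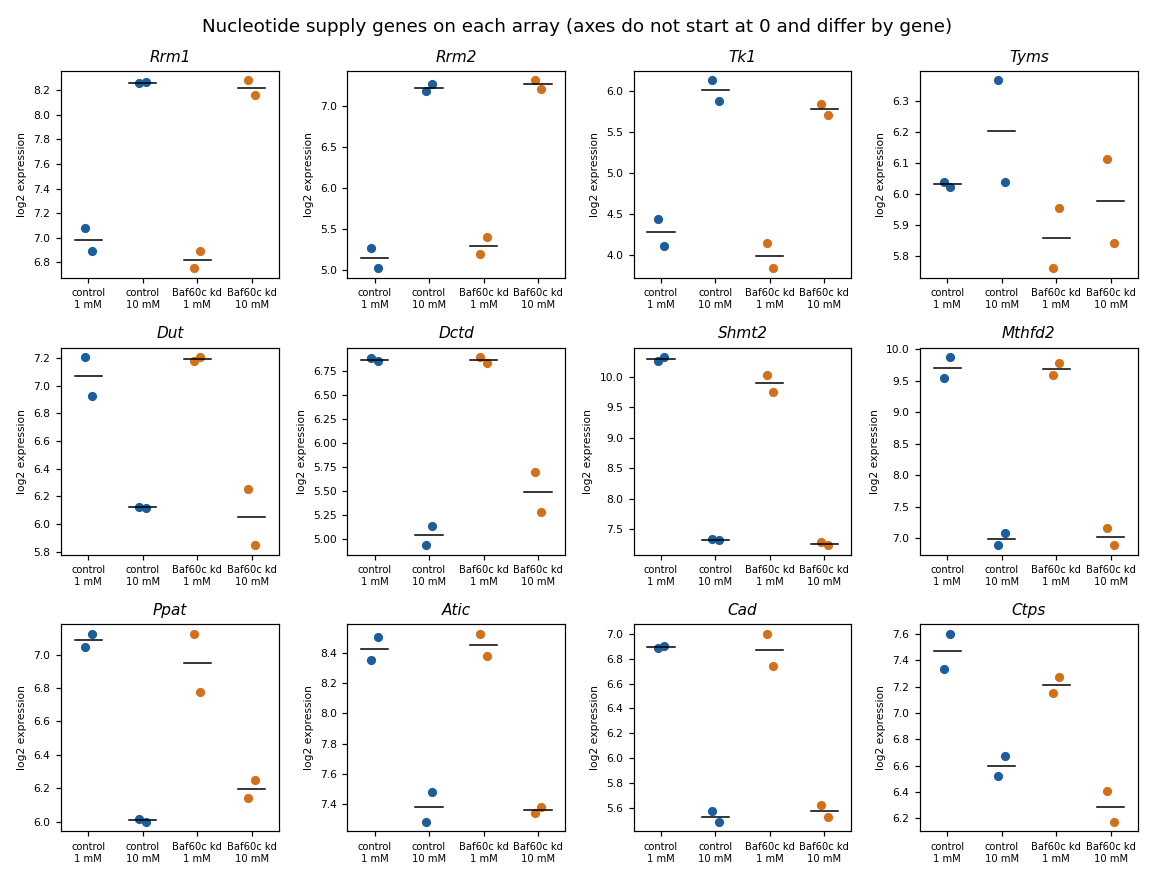
Log2 values on the 8 arrays for genes of nucleotide supply, by group, with 1 point per array and a line at the mean of the 2 arrays. Rrm1, Rrm2 and Tk1 are higher at 10 mM glucose, while Dut and genes that build precursors, such as Shmt2, Mthfd2 and Cad, are lower.

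The other replisome genes and the S phase regulators were also measured. Of 25 other replisome and chromatin assembly genes 5 rose and 1 fell in control cells, and 8 rose and 1 fell in knockdown cells. That is 20% higher and 4% lower in control cells, and 32% and 4% in knockdown cells. All tested genes gave 13.2% and 12.1% in control cells, and 14.5% and 10.6% in knockdown cells. Ticrr, which links S phase kinases to helicase activation, went from 2.71 and 2.5 to 4.69 and 4.33 in control cells, a rise of 1.90 (adjusted p = 0.00107). Asf1b, a histone chaperone, rose by 1.19, Dnmt1, the maintenance methyltransferase, by 0.86, and Tipin, a fork protection factor, by 0.70. Mtbp, a partner of Ticrr, fell by 1.15 (adjusted p = 0.0012). Thus both directions were present among partners of 1 step.

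Of 13 cyclins, kinases, E2F factors and inhibitors of S phase, 7 rose and 1 fell in control cells, and 9 rose and none fell in knockdown cells. The shares higher were 53.8% and 69.2%, against 13.2% and 14.5% of all tested genes. The share lower in control cells was 7.69%, against 12.1%. Ccna2, the S phase cyclin, read 5.68 and 5.56, then 8.41 and 7.94, in control cells, a rise of 2.55 (5.86-fold, adjusted p = 0.000478). E2f2 rose by 2.26 and E2f8, an E2F repressor, by 2.18 in control cells, while E2f1 gave 0.47 (adjusted p = 0.0644) and E2f3 0.12 (adjusted p = 0.629). Cdk1, the mitotic kinase, rose by 2.06. Cdc25a, the phosphatase that activates S phase kinases, fell by 0.76 in control cells (adjusted p = 0.0177). Cdc25a gave the 1 negative change of the list in control cells, and in knockdown cells all 13 changes were positive. Changes of the measured inhibitors, Cdkn1a among them, were thus positive too, whether or not they passed the test. Mki67, which marks cycling cells in general, rose by 2.52 in control and 2.71 in knockdown cells (adjusted p = 0.00116 and 0.00075).

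**Figure D4:**
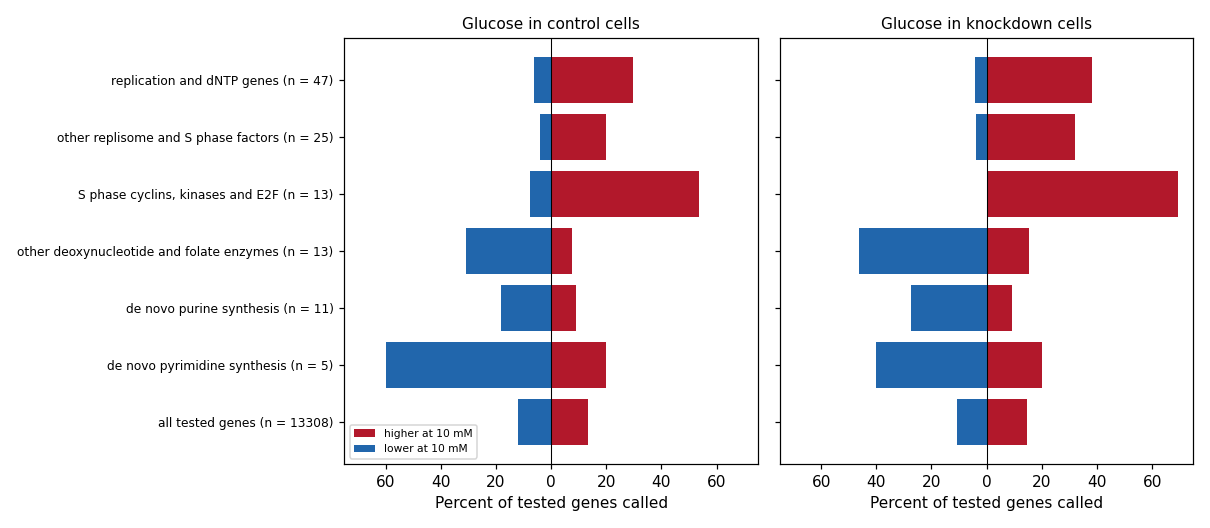
Bars give the percent of the tested genes of each list that were higher or lower at 10 mM glucose with an adjusted p under 0.05, in control and in knockdown cells, beside all 13308 tested genes. For the 47 replication genes the shares higher were 29.8% and 38.3%, against 13.2% and 14.5% of all tested genes.

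The levels of cell type markers moved with glucose as well. In bulk RNA, fewer cells of a type and less RNA per cell cannot be told apart. Of 14 myotube markers 9 rose in control and 14 in knockdown cells, where 13.2% and 14.5% of all tested genes rose and 12.1% and 10.6% fell. The mean level of the myotube list was 8.47 and 8.48 in control cells at 1 mM and 9.21 and 9.38 at 10 mM, and 7.14 and 7.25, then 8.30 and 8.40, in knockdown cells. Of 12 markers of undifferentiated myoblasts 5 rose and 1 fell in each kind of cell, and their mean ranged from 5.97 to 6.20 over the arrays at 1 mM and from 6.31 to 6.65 at 10 mM. Myod1 rose by 2.19 in control cells and Myf5 fell by 0.81 (adjusted p = 0.000718 and 0.0488). Spry1 gave -0.50, Id2 -0.23 and Pax7 0.02 there, none past the test. Of the 12 changes in control cells 9 were positive and 3 negative, so this list did not move as 1 block. Of 6 tested fibroblast markers all 6 rose in control and 5 in knockdown cells, with list means of 6.46 to 6.65 at 1 mM and 7.61 to 7.78 at 10 mM. Macrophage and adipocyte markers had list means of 2.23 to 2.69 and 2.28 to 2.68, with 2 of 5 genes tested in each. Both tested macrophage markers fell in knockdown cells, Ptprc by 0.67 and Cd68 by 0.99 (adjusted p = 0.0282 and 0.0365), and neither passed in control cells. No adipocyte marker passed in either, and no defining marker can be called absent on this scale. All groups are 1 cell line, so these lists give expression levels and do not show that other cell types were present. Any link between these levels and the change of the replication genes was not tested.

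At equal glucose, few genes of any kind passed the test between control and knockdown cells. A count of none among the 47 therefore does not set the replication genes apart. At 1 mM none of the 47 passed the limma test in either direction, where 0.233% of all tested genes were higher and 1.25% lower in knockdown cells. At 10 mM none passed, where 0.428% of all genes were higher and 0.691% lower. At an unadjusted p under 0.05 there were 5 genes at 1 mM (Mcm7, Orc1, Gins3, Rfc2 and Rpa2), where 2115 of the 13308 tested genes had one, and 4 at 10 mM (Gins1, Gins3, Pcna and Rfc2), where 1807 had one. The median difference of the 47 was -0.09 at 1 mM and 0.05 at 10 mM, beside -0.03 and 0.01 over all tested genes. The 95% interval of the difference stayed within 2-fold for 44 of the 47 at 1 mM and for 43 at 10 mM. The exceptions were Mcm5, Gins3 and Rpa2 at 1 mM, and Mcm3, Mcm5, Gins1 and Rpa3 at 10 mM. Intervals within 2-fold were not counted over all tested genes, here or in the comparisons below.

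Averaged over both glucose levels, 1 gene was lower in knockdown cells and none higher, where 1.6% of all tested genes were higher and 2.71% lower. That gene was Gins3, a GINS subunit. Its knockdown arrays, at 4.73 and 4.63 at 1 mM and 5.79 and 5.66 at 10 mM, were below the control arrays of the same glucose level, at 5.71 and 5.32 and at 6.19 and 6.38. The 2 kinds of cell stood apart in this way, in either direction, for 47.1% of all tested genes at 1 mM and 45.6% at 10 mM. For Gins3 the average difference was -0.70 ± 0.12 (1.62-fold lower, 95% interval -0.97 to -0.42, adjusted p = 0.0221). The call was kept without Scrb_LG replicate 2 (adjusted p = 0.0312) and ended without any 1 of the other 7 arrays, with an adjusted p of up to 0.0905 (without SiBc_HG replicate 2). At single glucose levels the difference was -0.83 (adjusted p = 0.0702) and -0.57 (adjusted p = 0.192).

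Rfc2 had the next smallest adjusted p for the average difference, at 0.38 ± 0.10 (adjusted p = 0.0807), and Mcm7 followed with 0.33 ± 0.11 (adjusted p = 0.146). Both were higher in knockdown cells at each glucose level but not past the test. For all 47 genes the 95% interval of the average difference stayed within 2-fold. The same cells differed more in muscle genes: 12 of the 14 myotube markers were lower with knockdown on average, Myh3 by 1.77 (adjusted p = 0.000593) and Actn2 by 2.07 (adjusted p = 0.00124). Among the S phase regulators Cdkn1a, an inhibitor of cyclin-dependent kinases, was lower with knockdown by 0.56 (adjusted p = 0.0271).

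**Figure D5:**
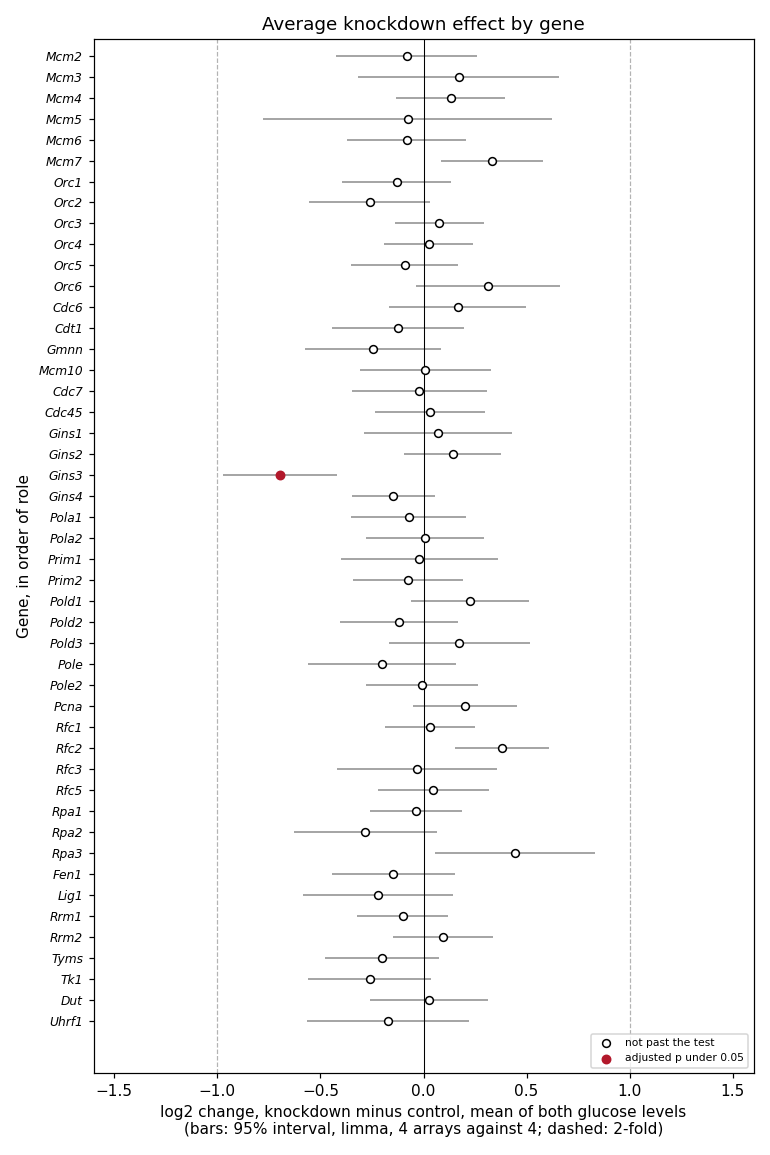
Points are average log2 differences, knockdown minus control cells over both glucose levels, for each of the 47 genes, with bars for the 95% interval of the limma fit over 8 arrays. Gins3, at -0.70, is the gene past the adjusted threshold, and no interval reaches a 2-fold difference.

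Whether the glucose response itself differed between the kinds of cell was tested with the interaction term. No member passed, and of all tested genes 0% were called in either direction. At an unadjusted p under 0.05 there were 2 members, Orc1 and Gins1, and 1049 of all genes. With trend and robust moderation 1 of all genes and no member was called. The glucose change was numerically more positive in knockdown cells for 31 of the 47 genes and less so for 16. This split was not counted over all tested genes. The median interaction was 0.07 for the 47 genes and 0.04 over all tested genes. With arrays centred on their median it was 0.02 for the 47. Gins1 gave 0.95 ± 0.31 (95% interval 0.23 to 1.66, adjusted p = 0.579), Prim1 -0.73 ± 0.33 (adjusted p = 0.645) and Cdt1 0.50 ± 0.27 (adjusted p = 0.707). The genes that passed in 1 kind of cell alone were therefore not shown to respond differently. For 34 genes the interval of the interaction stayed within 2-fold, and for the other 13 it reached past a 2-fold difference.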

How the data were processed

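RNA of 8 C2C12 cultures, 2 in each of 4 groups, was hybridised to Affymetrix arrays. The deposited values are log2 expression which the authors made with RMA (affy package), as the submitters' processing notes state per the labels. Tool versions and the build of the probe design are not given in the sources used here. Of 41345 probe sets, 23521 had 1 gene in the platform annotation, and a gene's probe set with the highest mean was used. Genes with a mean under the 40th percentile (2.30) were dropped. One limma model (R 4.3.3, limma 3.58.1) with 4 group means was fitted to 13308 genes, giving 6 contrasts, each with Benjamini-Hochberg adjustment over all of them and 4 residual plus 3.36 prior degrees of freedom. The number of arrays limits the precision. The fit was tested on simulated data.

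The 47 genes and all other lists were chosen with earlier results of these data known. Full values are given for the gene of each role with the largest control change, the MCM genes, the 5 deoxynucleotide enzymes, genes called with knockdown and genes that fell, and for up to 4 called genes per other list and direction. Mki67, Myc and further genes outside these rules were picked after their values were seen. Genes of the other lists without a single-gene probe set were not analysed here. Alternatives were no filter, a stricter filter, centred arrays, trend and robust moderation, a replicate block, the mean over probe sets and leaving out each array.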

Additional observations from a re-analysis of the deposited data

How the results depend on the processing

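In control cells 10 of the 14 higher and 2 of the 3 lower genes, and in knockdown cells 11 of the 18 and 1 of the 2, held their call in every alternative fit that tested them. Of 1668 values of the genes given in full, 1604 kept direction and side of the threshold, 41 lost the threshold, 13 gained it, 10 moved by more than the replicate spread and 0 reversed. The number of lower genes in control cells went from 3 to 6 with the stricter filter (mean at least 4.69) and to 6 with trend and robust moderation, which added Orc4, Pcna and Pold2. In knockdown cells it went from 2 to 4 with the stricter filter and to 5 with centred arrays. Both the stricter filter and trend and robust moderation called 1 gene lower with knockdown at 1 mM (Gins3), and the stricter filter called 1 higher on average (Rfc2). The stricter filter tests fewer genes, and for the others the cause was not tested. Without any filter Mcm2 and Mcm6 in control and Rfc3 in knockdown cells lost their calls. With 1 array left out, the counts with glucose were 10 to 13 higher and 2 to 4 lower in control cells, 13 to 18 higher and 2 lower in knockdown cells, and 0 to 1 lower for the average knockdown difference. Over all tested genes same-numbered replicates did not deviate together (correlations of -0.038 to 0.108). That does not settle pairing for the replication genes. The mean of the MCM genes was higher on replicate 1 than on replicate 2 in every group. So were the means of the origin firing, polymerase and clamp genes, while the other roles were mixed. With the replicate number as a block, 15 genes were higher and 3 lower in control and 19 higher and 2 lower in knockdown cells, where Mcm2 lost and Mcm3, Mcm5 and Rfc3 gained a call. No call with knockdown or for the interaction changed under the block. Dim genes such as Orc1, Cdc6 and Mcm10 lie near the low end of the scale, where the array's signal limits what can be measured.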
